A study of Mus musculus with 6 samples.

Results

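The 10 genes described here encode chaperones and a muscle methyltransferase that binds myosin. They are *Unc45a* and *Unc45b*, the methyltransferase gene *Smyd1*, the cytosolic Hsp90 genes *Hsp90aa1* and *Hsp90ab1*, and the small heat shock protein genes *Hspb1*, *Hspb2*, *Hspb3*, *Hspb7* and *Hspb8*. They were taken by symbol from the 54525 gene rows of the count files, and all 10 were found and passed the filter on low counts, which 16290 genes passed. *Hspb3* passed it only through its counts in myotubes. RNA-seq had been performed on wild-type C2C12 cells, an established line of mouse myoblasts with no other treatment in the labels, as 3 cultures of myoblasts (day 0, D0) and 3 cultures of myotubes after 5 days of differentiation in medium with horse serum (D5). The cultures come from a single line, so the p-values below describe the spread between cultures of that line.

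Myosin heavy chains fold with the help of dedicated chaperones. UNC45 proteins bind the myosin motor domain and Hsp90 together, *Unc45a* in most cell types and *Unc45b* in striated muscle, where the muscle methyltransferase encoded by *Smyd1* also binds myosin and takes part in the assembly of the thick filament. Small heat shock proteins share the alpha-crystallin domain, form oligomers that hold unfolded proteins without using ATP, and in muscle associate with the sarcomere, the Z-disc and filamin. *Hspb1*, *Hspb2*, *Hspb3*, *Hspb7*, *Hspb8* and *Cryab* are all known from skeletal or cardiac muscle, and HSPB8 works with the co-chaperone BAG3 in the removal of damaged filamin.

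The genes changed in different directions as myoblasts became myotubes. *Unc45b*, *Hspb3* and *Hspb7* were low or not detected in myoblasts and well expressed in myotubes, *Hspb2* and *Hspb8* rose from an existing level, and *Hspb1*, *Hsp90aa1* and *Unc45a* fell. In edgeR's quasi-likelihood test with Benjamini-Hochberg adjustment over all genes tested, 6 of the 10 genes were higher and 4 were lower in myotubes at an adjusted p below 0.05. Of all genes tested 82.9% passed this threshold, 42.2% higher and 40.8% lower, so that passing it does not set these genes apart. In all 10 genes every D5 library lay on one side of every D0 library in CPM, as it did in 83.3% of all genes tested. For *Hspb3*, which passed the filter on low counts only through its D5 counts, the filter fixed the direction and the separation of the groups. The median log2 change of the 10 genes was 1.11, against 0.0022 over all genes tested, and their median absolute log2 change was 2.06, against 0.67. The median of genes that go both ways is unstable: it was 0.54 with spike-in scaling and 0.28 with at least 10 counts required in every library, where *Hspb3* drops out.

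The libraries held 36555048 to 40895840 counts on genes at D0 and 25449759 to 25811300 at D5. Levels within one gene are given as CPM (counts relative to the library's total after TMM scaling) and levels between genes as TPM (which also divides by exonic length). Synthetic ERCC spike-in RNAs took 0.720% to 2.09% of the counts, and both of these values came from D5 libraries. When the libraries were scaled to the spike-ins instead of by TMM, the median log2 change of all genes moved from 0.0022 to -0.58, and 5560 genes passed instead of 13510. Among the 10 genes this scaling turned the sign of *Smyd1*, and neither *Smyd1* nor *Hsp90ab1* passed the threshold any longer, as given with each of them. The other genes kept their call. Of these, *Unc45a* (adjusted p = 0.043 in edgeR's test) and *Hspb8* (adjusted p = 0.031) only just passed. The myoblast markers *Myod1*, *Myf5* and *Pax7* were all lower at D5, and the myotube markers *Myog*, *Mymk*, *Ckm*, *Acta1* and *Ttn* were all higher. Of the marker lists of other cells, the adipocyte and neuron lists had at most 5 counts in any library. *Ptprc* and *Adgre1* of leukocytes had at most 1 and *Nppa* and *Myl7* of cardiomyocytes at most 2. Among the endothelium markers *Pecam1* had at most 7 and *Cdh5* at most 3 counts, while *Kdr* had 90 to 118 per library at D0 and 5 to 6 at D5. *Cd68* of leukocytes had 123 to 130 at D0 and 46 to 63 at D5. The cardiomyocyte markers *Nkx2-5*, with 176 to 197 counts per library at D0 and 51 to 71 at D5, and *Nppb*, with 50 to 75 and 2 to 7, were both lower at D5. Of the smooth muscle markers *Myh11* had 2 to 8 counts, with *Cnn1* falling from 155 ± 3.26 to 1.03 ± 0.250 CPM and *Smtn* at 126 ± 4.36 and 131 ± 1.06 CPM (SD, n = 3 per group), and the part of these cell types in the results was not tested. In these bulk libraries a change in the number of cells of a type and a change in RNA per cell cannot be told apart.

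**Figure D1:**
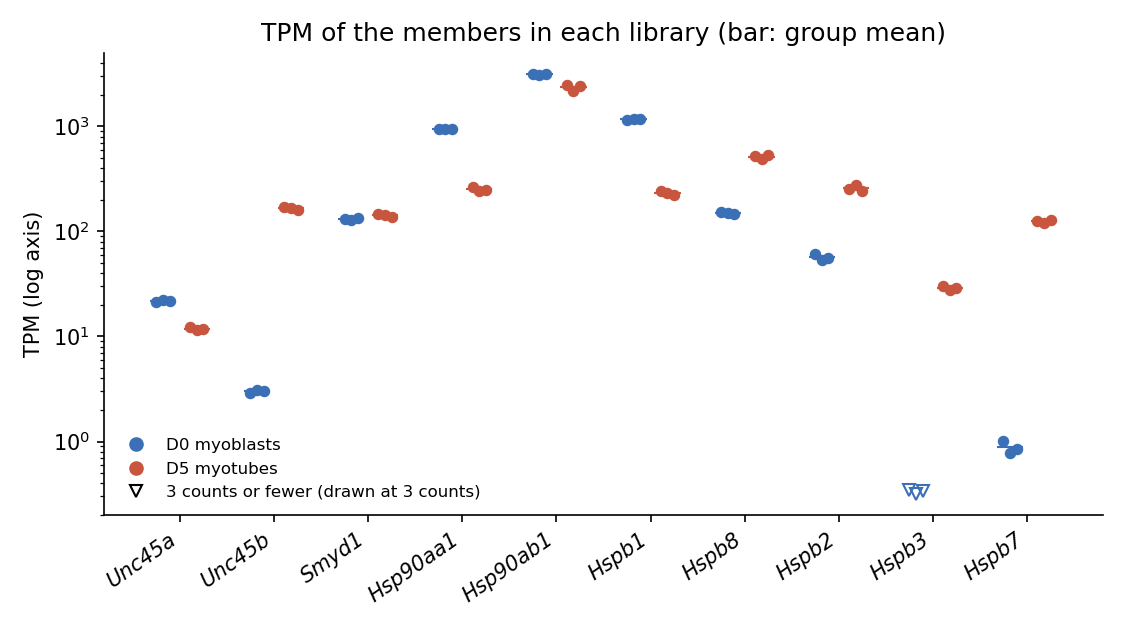
TPM of each of the 10 genes (x axis) in each library (y axis, log scale), with D0 myoblasts in blue, D5 myotubes in red, a bar at the mean of 3 libraries and open triangles for libraries with 3 counts or fewer, drawn at the TPM of 3 counts. *Unc45b*, *Hspb3* and *Hspb7* rise from the bottom of the axis, *Hsp90ab1* stays at the top in both groups, and the libraries of a group lie close together.

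The regulatory windows of the small heat shock genes are shown because these genes of one family went opposite ways. Of the 10 genes, 7 had an entry among the RefSeq promoters of GRCm38.p6, and the 250 bases before the start are given for the 4 small heat shock genes with one. Capitals mark E-boxes (CANNTG, the letters bound by myogenic factors such as MyoD and myogenin), a MEF2-type motif (CTA and TAG with any 4 bases between them) and the heat shock element units GAANNTTC and TTCNNGAA, searched on both strands. The windows are chr5:135887669-135887918 on the plus strand for *Hspb1*, chr13:113663677-113663926 on the minus strand for *Hspb3*, chr4:141420529-141420778 on the plus strand for *Hspb7* and chr5:116422865-116423114 on the minus strand for *Hspb8*, each read in the direction of transcription.
Hspb1: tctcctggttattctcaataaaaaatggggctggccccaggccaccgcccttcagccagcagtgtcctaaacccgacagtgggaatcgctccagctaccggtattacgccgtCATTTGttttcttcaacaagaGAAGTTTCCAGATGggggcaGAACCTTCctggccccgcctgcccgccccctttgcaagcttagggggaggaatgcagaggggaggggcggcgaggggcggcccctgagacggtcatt
Hspb3: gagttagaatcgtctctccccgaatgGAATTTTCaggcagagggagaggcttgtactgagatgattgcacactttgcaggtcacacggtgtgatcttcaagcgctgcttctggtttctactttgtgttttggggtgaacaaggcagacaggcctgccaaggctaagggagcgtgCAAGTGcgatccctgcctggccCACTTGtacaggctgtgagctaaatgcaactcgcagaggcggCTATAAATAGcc
Hspb7: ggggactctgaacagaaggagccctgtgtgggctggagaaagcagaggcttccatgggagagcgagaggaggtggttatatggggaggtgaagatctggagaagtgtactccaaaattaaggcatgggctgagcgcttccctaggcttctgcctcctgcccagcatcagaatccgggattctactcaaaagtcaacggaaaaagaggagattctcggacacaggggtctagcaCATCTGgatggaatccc
Hspb8: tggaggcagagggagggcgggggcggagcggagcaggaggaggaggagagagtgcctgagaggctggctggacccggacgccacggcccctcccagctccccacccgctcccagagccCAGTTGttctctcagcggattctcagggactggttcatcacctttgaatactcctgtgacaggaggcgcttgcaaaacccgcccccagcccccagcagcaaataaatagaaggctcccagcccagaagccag

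*Hspb1*, which fell, held 2 units GAANNTTC, starting 117 and 97 bases before the start, with E-boxes at 138 and 109. *Hspb3*, which rose, held a MEF2-type motif 12 bases before the start, inside which the letters TATAAA of a TATA box begin at 11, as well as E-boxes at 76 and 54 and a GAANNTTC unit at 224. *Hspb7* held an E-box at 17 and *Hspb8* an E-box at 132. Among the 32851 promoters in the same table, 66.2% held an E-box in a window of this length, 3.2% a MEF2-type motif, 12.4% TATAAA on either strand, 6.69% GAANNTTC and 7.17% TTCNNGAA. E-boxes are thus common in any set of promoters, and TTCNNGAA was in none of these 4 windows. These are matches of letters and no measurement of binding.

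*Unc45b* (ENSMUSG00000018845.14, chr11:82910550-82943403 of GRCm38, plus strand), the myosin chaperone of striated muscle, was counted 144, 169 and 157 times at D0 against 6100, 6050 and 5768 times at D5. Every myotube library held far more than any myoblast library in spite of the lower depth. The level rose from 3.92 ± 0.0899 to 240.1 ± 7.24 CPM (SD, n = 3 per group), a log2 change (D5 over D0) of 5.93 (standard error, SE, 0.051, adjusted p = 2.0e-37 in edgeR's quasi-likelihood test). This is 61.1-fold, rank 468 by size of rise among the 16290 genes tested. The antisense genes *Unc45bos* and *Slfn5os* share 9.04% of its exonic length on the other strand, and since the strand setting of the counting is not stated, reads from those bases cannot be told apart. The rows of these antisense genes held few counts: *Unc45bos* had a mean of 0.333 at D0 and 0.667 at D5, and *Slfn5os* 0.333 and 2.67.

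*Unc45a* (ENSMUSG00000030533.15, chr7:80325292-80341005, minus strand), the paralog found in most cell types, was counted 1183, 1364 and 1258 times at D0 against 488, 468 and 481 times at D5. The level fell from 31.8 ± 0.620 to 19.3 ± 0.230 CPM (SD, n = 3 per group), a log2 change of -0.72 (SE 0.051, adjusted p = 6.7e-14 in edgeR's test), so that 60.6% of the D0 level was left. With spike-in scaling the log2 change was -1.29 (adjusted p = 0.043 in edgeR's test). The paralogs thus exchanged places. *Unc45b* made up 12.2% ± 0.137 of the summed Unc45 TPM in myoblasts and 93.3% ± 0.234 in myotubes (SD, n = 3 per group). The sum of both rose from 24.7 ± 0.607 to 177 ± 6.41 TPM (SD, n = 3 per group).

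*Smyd1* (ENSMUSG00000055027.17, chr6:71213940-71322233, minus strand) differed from *Unc45b* in already being abundant in myoblasts. It had 6549, 7107 and 6985 counts at D0 and 5260, 5248 and 5071 at D5, which after scaling was 172 ± 3.02 CPM and 209 ± 4.60 CPM (SD, n = 3 per group). The log2 change was 0.28 with TMM scaling (SE 0.033, adjusted p = 6.2e-09 in edgeR's test) and -0.28 with spike-in scaling (adjusted p = 0.70), so its direction depends on the scaling. Ratios within a library do not. The TPM ratio of *Unc45b* to *Smyd1* was 0.0222 to 0.0241 in the D0 libraries and 1.15 to 1.17 in the D5 libraries.

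The myosin heavy chains, the clients of the UNC45 chaperones, were measured in the same libraries. All 8 of the 9 striated myosin heavy chain genes listed that were tested were higher at D5 past the threshold, against 42.2% of all genes tested. Among them *Myh4*, *Myh6*, *Myh7*, *Myh7b* and *Myh8* had at most 7 counts in any D0 library. They passed the filter on low counts only through their D5 counts, so the filter fixed their direction. The share of 8 is therefore no evidence beside that of all genes. The summed TPM of the 9 genes rose from 3.68 ± 0.336 to 4893 ± 101 (SD, n = 3 per group). *Unc45b* rose less than this sum. Per 1000 TPM of striated myosin heavy chains there were 826 ± 103 TPM of *Unc45b* at D0 and 33.9 ± 0.710 TPM at D5 (SD, n = 3 per group), a ratio that rests on very few myosin transcripts in myoblasts. The nonmuscle heavy chains *Myh9* and *Myh10* together fell from 1124 ± 18.3 to 472 ± 16.8 TPM (SD, n = 3 per group), and per 1000 TPM of them *Unc45a* stood at 19.3 ± 0.299 TPM at D0 and 25.0 ± 0.985 TPM at D5. *Myh14*, a further nonmuscle heavy chain, went the other way, from 0.0953 to 2.88 TPM as means of 3 libraries, a log2 change of 5.05 (SE 0.20, with an adjusted p of 4.1e-20 by edgeR).

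*Hsp90aa1* (ENSMUSG00000021270.13, chr12:110690605-110702728, minus strand), the stress-inducible cytosolic Hsp90, fell. It had 41077, 45034 and 42661 counts at D0 and 8245, 7656 and 7866 at D5. All myotube libraries were below all myoblast libraries. The level went from 1076 ± 19.0 to 318 ± 9.00 CPM (SD, n = 3 per group), a log2 change of -1.76 (SE 0.033, adjusted p = 1.2e-28 in edgeR's test), leaving 29.6% of the D0 level. Of the 50-base stretches of its transcripts 47.5% also occur in other genes, mostly in the processed pseudogene *Gm12346* with 41.8%. The pseudogenes themselves held counts equal to 0.871% of those of *Hsp90aa1* at D0 and 0.526% at D5, and how reads with several matches were treated is not stated, so the effect of the shared stretches on its level is not known.

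*Hsp90ab1* (ENSMUSG00000023944.14, chr17:45567775-45573271, minus strand), the constitutive cytosolic Hsp90, was the most abundant of the 10 genes in both groups. It had 103155, 112434 and 108552 counts at D0 and 58620, 53007 and 59095 at D5, or 2708 ± 41.1 CPM and 2287 ± 119 CPM (SD, n = 3 per group). The log2 change was -0.24 (SE 0.036, adjusted p = 3.7e-07 in edgeR's test), and with spike-in scaling it was -0.83 with an adjusted p of 0.20, past the threshold no longer. *Hsp90ab1* thus made up 76.7% ± 0.174 of the summed TPM of the pair at D0 and 90.4% ± 0.360 at D5 (SD, n = 3 per group). The sum of the pair at D5 was 64.3% of the D0 sum, 2616 ± 164 against 4068 ± 29.2 TPM (SD, n = 3 per group, exact permutation test, two-sided, p = 0.1). TPM is relative to the total of each library, and with TMM scaling *Hsp90ab1* alone kept 84.4% of its D0 level.

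*Hspb1* (ENSMUSG00000004951.10, chr5:135887919-135889563, plus strand), which encodes HSP25, a chaperone that also binds actin filaments, showed the largest fall of the 10 genes. It had 13086, 14811 and 14020 counts at D0 and 1963, 1946 and 1839 at D5. The level fell from 349.9 ± 2.13 to 77.0 ± 2.71 CPM (SD, n = 3 per group), a log2 change of -2.18 (SE 0.035, adjusted p = 1.7e-30 in edgeR's test), or 22.0% of the D0 level. Its transcripts share 50.1% of their 50-base stretches with other genes, mostly with the pseudogene *Hsp25-ps1* with 48.8%. *Gm9817*, annotated as protein coding, shares 38.25% on the opposite strand. Together *Hsp25-ps1* and *Gm9817* held counts equal to 0.771% of those of *Hspb1* at D0 and 0.731% at D5, and the same limit holds.

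*Hspb8* (ENSMUSG00000041548.4, chr5:116408491-116422864, minus strand), the partner of BAG3, rose. It had 3259, 3568 and 3271 counts at D0 and 8155, 7643 and 8398 at D5. After scaling this was 84.4 ± 2.92 CPM and 324 ± 13.7 CPM (SD, n = 3 per group), a log2 change of 1.94 (SE 0.037, adjusted p = 1.2e-28 in edgeR's test) or 3.84-fold. With spike-in scaling the log2 change was 1.36 (adjusted p = 0.031 in edgeR's test). *Bag3* itself stood at 119 TPM at D0 and 120 TPM at D5 as means of 3 libraries, with a log2 change of 0.17 with TMM scaling and -0.41 with spike-in scaling. The TPM ratio of *Hspb8* to *Bag3* went from 1.20 to 1.30 in the D0 libraries up to 4.19 to 4.35 in the D5 libraries.

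*Hspb2* (ENSMUSG00000038086.4, chr9:50751078-50752354, minus strand), first described as a protein that binds the myotonic dystrophy kinase, had 560, 542 and 532 counts at D0 and 1692, 1852 and 1650 at D5. The level rose from 13.7 ± 1.11 to 69.6 ± 4.83 CPM (SD, n = 3 per group), a log2 change of 2.35 (SE 0.057, adjusted p = 5.8e-26 in edgeR's test) or 5.10-fold. *Cryab*, which encodes alphaB-crystallin, lies head to head with it (chr9:50751325-50756636, plus strand), and 30.2% of the exonic length of *Hspb2*, 252 bases, is shared with *Cryab* on the opposite strand. *Cryab* rose too, from 121.5 ± 3.73 to 369.5 ± 15.9 CPM (SD, n = 3 per group), a log2 change of 1.60 with TMM scaling and 1.05 with spike-in scaling (adjusted p = 0.10). Reads of the shared bases could count for either gene or for neither, so the size of the rise of *Hspb2* is uncertain to that extent. The TPM ratio of *Hspb2* to *Cryab* was 0.190 to 0.211 at D0 and 0.315 to 0.348 at D5.

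*Hspb3* (ENSMUSG00000051456.4, chr13:113662896-113663676, minus strand), a gene of 1 exon for a muscle protein that forms complexes with HSPB2, was at or under the limit of 3 counts for a detected gene in every myoblast library, with 0, 2 and 1 counts. In the myotube libraries it had 188, 173 and 183 counts, or 7.29 ± 0.240 CPM (SD, n = 3). Against the mean limit of 3 counts per D0 library the level was at least 96.8-fold higher (adjusted p = 1.2e-21 in edgeR's test). It passed the filter on low counts only through its D5 counts, so the filter fixed the direction and this p-value adds no evidence. It was the least abundant small heat shock gene of the 5 in both groups, and at D5 its TPM was 0.0998 to 0.119 of that of *Hspb2*. With the 3 counts in place of its D0 counts the ratio to *Hspb2* at D0 was 0.00572 to 0.00602, an upper limit.

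*Hspb7* (ENSMUSG00000006221.7, chr4:141420779-141425311, plus strand), the cardiovascular heat shock protein, which binds filamin C and thin filaments, had 31, 26 and 27 counts at D0 and 2738, 2700 and 2888 at D5. All myotube libraries lay far above all myoblast libraries. The level rose from 0.705 ± 0.109 to 111.6 ± 3.93 CPM (SD, n = 3 per group), a log2 change of 7.31 (SE 0.076, adjusted p = 2.8e-35 in edgeR's test). This was 158-fold, rank 284 by size of rise among all genes tested. *Flnc*, the gene of filamin C, had a log2 change of 0.30 with TMM scaling and -0.26 with spike-in scaling.

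The composition of the small heat shock transcripts changed more than their sum. With *Cryab* and *Hspb6* added to the 5 genes, their summed TPM was 1705 ± 7.72 at D0 and 1945 ± 2.31 at D5 (SD, n = 3 per group), 114% of the D0 sum. In myoblasts *Hspb1* alone made up 68.8% ± 0.808 of this sum, followed by *Cryab* with 16.7% ± 0.317 and *Hspb8* with 8.77% ± 0.197. In myotubes *Cryab* led with 39.8% ± 0.930, then *Hspb8* with 26.5% ± 1.34, *Hspb2* with 13.3% ± 0.788, *Hspb1* with 11.9% ± 0.519 and *Hspb7* with 6.42% ± 0.211 (SD, n = 3 per group). The sums of both groups did not overlap (exact permutation test, two-sided, p = 0.1, the smallest value that 3 against 3 libraries can give). TPM is relative to the total of each library, and the sum was not scaled to the spike-ins. With spike-in scaling the log2 changes of *Hspb1*, *Cryab* and *Hspb8* were -2.73, 1.05 and 1.36, against -2.18, 1.60 and 1.94 with TMM scaling. Whether the sum rises with spike-in scaling was not tested.

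**Figure D2:**
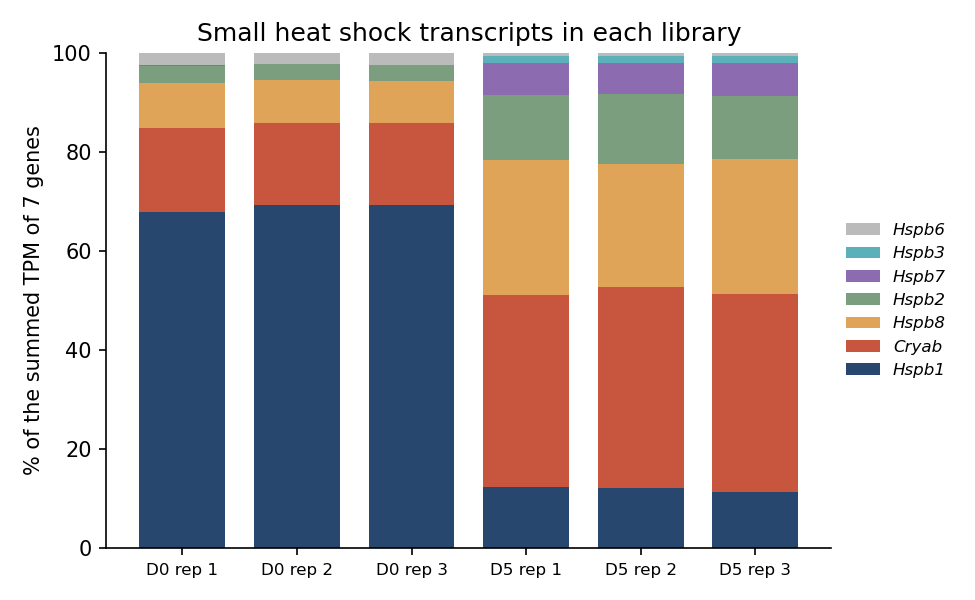
Share of each of 7 small heat shock genes in their summed TPM (y axis, percent), stacked for each of the 6 libraries (x axis). *Hspb1* takes 67.9% to 69.4% of the bar in the D0 libraries and 11.3% to 12.4% in the D5 libraries, where *Cryab* and *Hspb8* are the largest parts.

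Across all 10 genes the order of TPM changed. In myoblasts it ran *Hsp90ab1* (3122 ± 29.2), *Hspb1* (1174 ± 18.8), *Hsp90aa1* (946 ± 2.00), *Hspb8* (149.5 ± 3.07), *Smyd1* (131 ± 2.43), *Hspb2* (56.7 ± 3.80), *Unc45a* (21.7 ± 0.512), *Unc45b* (3.02 ± 0.0993) and *Hspb7* (0.880 ± 0.124), with *Hspb3* under the limit (SD, n = 3 per group). No neighbors in that order overlapped between libraries. In myotubes it ran *Hsp90ab1* (2365 ± 154), *Hspb8* (515 ± 26.5), *Hspb2* (259 ± 15.1), *Hsp90aa1* (251 ± 12.2), *Hspb1* (232 ± 9.86), *Unc45b* (166 ± 6.24), *Smyd1* (142 ± 3.97), *Hspb7* (124.9 ± 4.25), *Hspb3* (28.9 ± 1.49) and *Unc45a* (11.8 ± 0.365). Only *Hspb2* and *Hsp90aa1* overlapped there. The summed TPM of the 10 genes at D5 was 73.1% of that at D0 (exact permutation test, two-sided, p = 0.1). This sum is relative to the total of each library and was not scaled by TMM or to the spike-ins.

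Ratios between pairs of genes in one library do not depend on how libraries are scaled to each other, so 6 pairs were compared. The log2 ratio of TPM rose by 6.66 for *Unc45b* over *Unc45a*, 5.66 for *Unc45b* over *Smyd1*, 1.51 for *Hsp90ab1* over *Hsp90aa1*, 1.77 for *Hspb8* over *Bag3*, 0.74 for *Hspb2* over *Cryab* and at least 4.25 for *Hspb3* over *Hspb2*. In each pair all 3 D5 libraries lay above all 3 D0 libraries. The direction depends on which gene is the numerator, and the pairs were chosen with earlier results of these data known. That all pairs rose is therefore not a result. Each exact permutation test gave p = 0.1, two-sided, and 0.1 after adjustment over the 6 pairs, which no result of 3 against 3 libraries can go below.

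**Figure D3:**
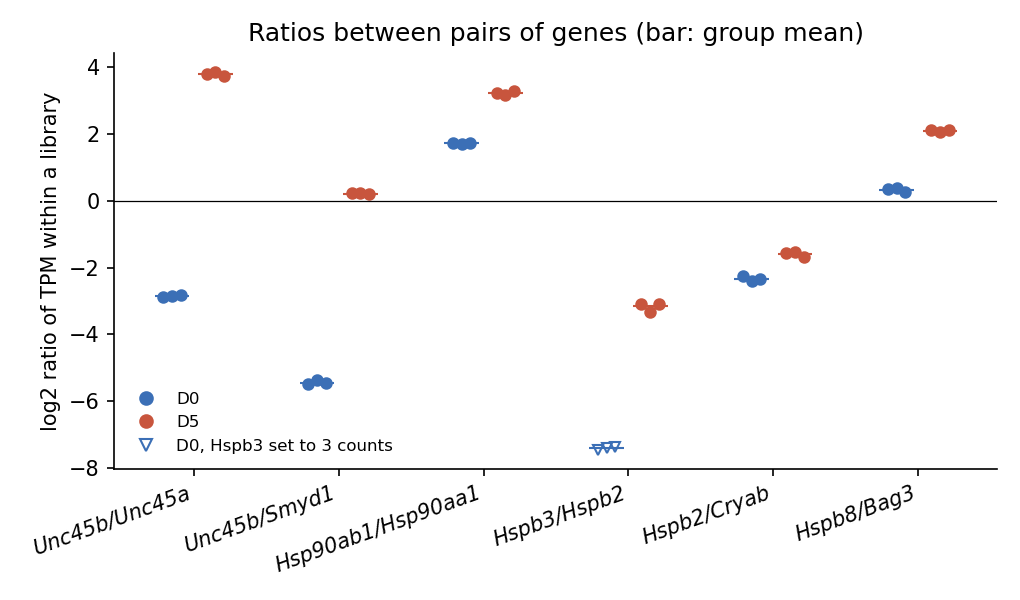
Log2 ratio of TPM between both genes of each of 6 pairs (x axis), with a point per library, D0 in blue, D5 in red and a bar at the mean of 3. Open triangles are D0 libraries in which *Hspb3* was set to 3 counts, and in every pair the D5 points lie above the D0 points.

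Other chaperones and genes related to them were described by lists. Of 67 genes in 7 related lists 64 were tested, 19 were higher and 29 were lower in myotubes past the same threshold of edgeR's test. This is 75% of those tested, against 82.9% of all genes. Their median log2 change was -0.056 and their median absolute log2 change 0.35. With spike-in scaling 3 were higher and 6 lower, or 14.1% together, against 34.1% of all genes (11.1% higher and 23% lower), and 6 of the genes called with TMM changed sign. The 6 other small heat shock genes gave 3 that could be tested: *Cryab* rose, *Hspb11* had a log2 change of 0.30 with overlapping groups and of -0.30 with spike-in scaling, and *Hspb6*, the gene of HSP20, fell by 1.63 on the log2 scale. *Hspb9*, *Cryaa* and *Odf1* had at most 2 counts in any library. *Hsp90b1*, the Hsp90 of the endoplasmic reticulum, fell by 1.15 on the log2 scale, while the mitochondrial *Trap1* stood at a log2 change of 0.063 (adjusted p = 0.12).

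Of 15 Hsp90 co-chaperone genes 2 rose, 7 fell and 6 did not pass the threshold, and with spike-in scaling 1 was higher and 2 were lower. Among all genes tested 42.2% rose and 40.8% fell past the threshold with TMM scaling, and 11.1% and 23% with spike-in scaling. *Itgb1bp2*, the gene of melusin, a co-chaperone of striated muscle, had the largest rise of the list, with 104, 111 and 111 counts at D0 and 1612, 1683 and 1442 at D5, a log2 change of 4.54 (SE 0.073, adjusted p = 1.6e-30 in edgeR's test). *Ptges3*, the gene of p23, which closes the Hsp90 cycle, fell most, by 1.26 on the log2 scale, and *Stip1*, which links Hsp70 to Hsp90, fell by 0.51. In the Hsp70 system of 21 genes 9 rose and 6 fell with TMM scaling. With spike-in scaling 3 of the 9 changed sign and only *Dnaja4* passed the threshold (adjusted p = 0.042). Its most abundant gene *Hspa8*, the constitutive Hsp70, stood at -0.053 in log2 change (adjusted p = 0.14), with *Dnaja4* at the top with 1.86 and *Dnajb4* at the bottom with -0.63.

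Of 4 genes of heat shock factors and their binding protein, 2 fell and 2 rose with TMM scaling, and only *Hsf4* passed the threshold with spike-in scaling. For this list and those below, the shares over all genes tested were 42.2% higher and 40.8% lower with TMM scaling. With spike-in scaling these shares were 11.1% and 23%. *Hsf1*, the main activator of heat shock genes, fell by 0.60 on the log2 scale and *Hsf2* had a log2 change of -0.47, while *Hsf4* rose by 2.34 from a low level of 1.38 ± 0.123 CPM (SD, n = 3) and *Hsbp1* by 0.74. Of 14 subunits of the cytosolic chaperonin TRiC and of prefoldin, which fold actin and tubulin, 9 fell and 2 rose with TMM scaling, from -0.88 for *Pfdn4* to 0.88 for *Pfdn5*, with the most abundant, *Cct2*, at -0.77. With spike-in scaling *Pfdn4* and *Cct2* alone passed the threshold, both lower, and 1 of the 2 that rose changed sign. Of the other 4 Smyd genes, *Smyd2*, *Smyd4* and *Smyd5* fell and *Smyd3* had a log2 change of 0.46 with TMM scaling and -0.13 with spike-in scaling. *Naca*, whose muscle isoform skNAC partners SMYD1, rose by 0.88. None of these 5 genes passed the threshold with spike-in scaling. The counts do not separate skNAC from the common isoform.

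**Figure D4:**
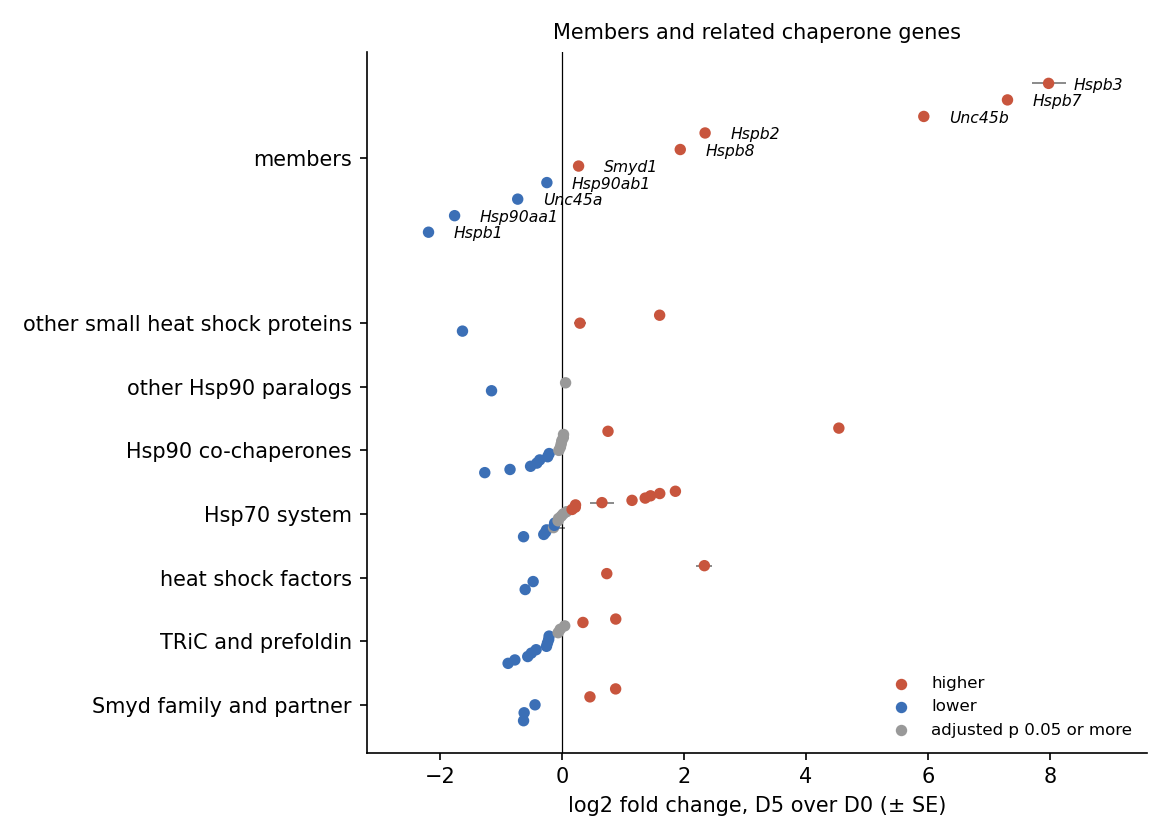
Log2 fold change at D5 over D0 with TMM scaling (x axis, bars are standard errors (SE)) of the 10 genes and of the tested genes of 7 related chaperone lists (rows). Red points were higher and blue points lower past an adjusted p of 0.05 by edgeR's test, and *Hspb3*, *Hspb7*, *Unc45b* and the co-chaperone *Itgb1bp2* lie furthest to the right; with spike-in scaling *Smyd1* lies at -0.28.

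Genes for the turnover of myosin and filamin were listed as well. Of 6 genes 5 rose and 1 fell at D5 with TMM scaling. With spike-in scaling 2 were higher and 1 lower, *Flnc* changed sign, and *Trim55* and *Synpo2* did not pass (adjusted p = 0.37 and 0.86). Of all genes tested, 42.2% were higher and 40.8% lower past the threshold with TMM scaling, and 11.1% and 23% with spike-in scaling. *Trim63*, the gene of MuRF1, a ubiquitin ligase for thick filament proteins, rose from 10, 9 and 16 counts at D0 to 2435, 2397 and 2486 at D5, a log2 change of 8.37. *Ube4b*, whose relative in the worm multiubiquitylates UNC-45, fell by 0.77 on the log2 scale.

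**Figure D5:**
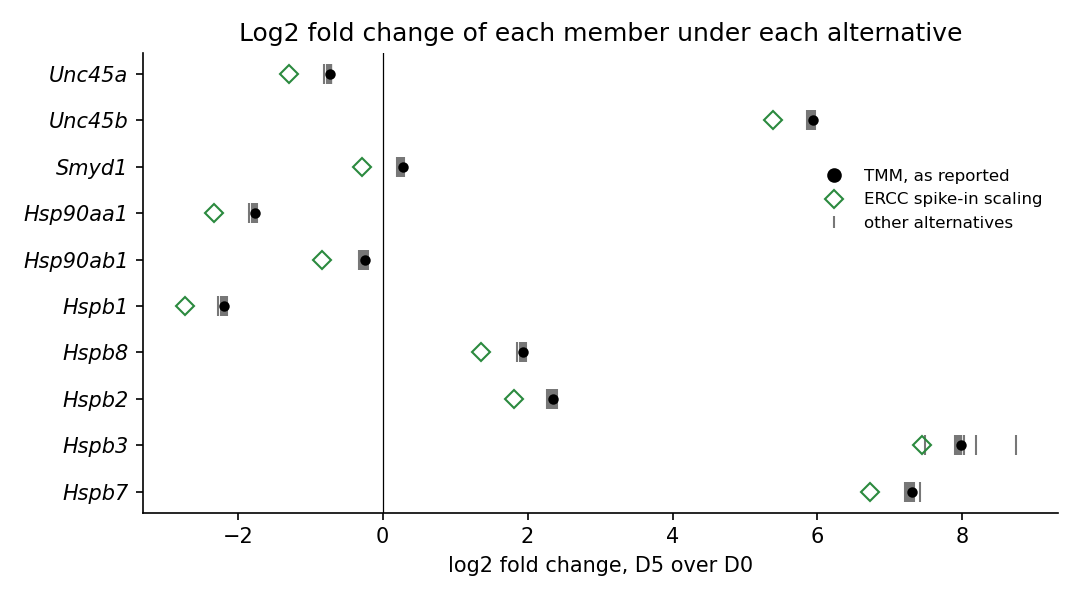
Log2 fold change at D5 over D0 of each of the 10 genes (rows) with TMM scaling (black), with scaling to the ERCC spike-ins (open green diamonds) and under the other alternatives (gray ticks). Spike-in scaling moves every gene to the left and takes *Smyd1* from 0.28 to -0.28, while *Hspb3* varies most between the other alternatives.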

How the data were processed

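RNA-seq was performed on 3 D0 and 3 D5 cultures of C2C12. The authors deposited raw counts per gene from featureCounts on GRCm38, not normalized and 1 file per culture. The labels name Tophat2 and NGS-QC-Toolkit and the study's methods HISAT2 and FastQC, and the sources do not settle which of these were used. Annotation release, strand setting and multimapping settings are not given in the sources used here, so overlapping genes and near copies may share reads. The 92 spike-in rows and an unnamed row equal to the column total were left out. Positions and exonic lengths came from GENCODE M21, which held 99.9% of the gene identifiers.

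On these counts as deposited, edgeR 4.0.16 under R 4.3.3 gave TMM factors, CPM, TPM and, after filterByExpr, the quasi-likelihood test, with Benjamini-Hochberg adjustment over 16290 genes and a threshold of 0.05. The standard error of a log2 fold change is its size over the square root of F. A gene with 3 counts or fewer in every library of a group was taken as not detected there, which covers counting error only. Replicates differed by more than sampling noise (chi-square over its degrees of freedom 2.28 to 3.71), and each library was 1 sample. Alternatives were DESeq2 1.42.0, RLE, upper-quartile, total-count and spike-in scaling, other filters, fits without each library, a block for replicate number and, chosen after seeing the data, pseudogene counts added. Scripts were tested on simulated data.

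All 10 genes are named in full, and from each related list at most 4: the highest and lowest log2 fold change past the threshold, the most abundant, and genes of the pairs compared. *Hspb11*, *Trap1*, *Hspb9*, *Cryaa*, *Odf1*, *Hsf2*, *Smyd2*, *Smyd3*, *Smyd5*, *Trim55* and *Synpo2* were named after their values were seen. The genes, lists, motifs and pairs were chosen with earlier results of these data known.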

Additional observations from a re-analysis of the deposited data

How the results depend on the processing

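Each fit was repeated under 15 alternatives. The 10 genes kept direction and side of the threshold in all of them, except *Smyd1* and *Hsp90ab1* with spike-in scaling (-0.28 with adjusted p = 0.70, and -0.83 with adjusted p = 0.20 in edgeR's test) and *Hspb3*, which was not tested with at least 10 counts in every library. Spike-in scaling rests on spike-in shares that ranged from 0.720% to 2.09% among D5 libraries; it gave 5560 genes called in place of 13510, of which 67.4% were lower against 49.2%, and 23 of 81 tested genes of the related lists in place of 65. The cause was not tested. The other alternatives called 11494 to 15274 genes. The median log2 fold change of the 10 genes, 1.11, was 1.09 with upper-quartile factors, 1.02 with total counts, 0.54 with spike-in scaling, 1.06 with no filter on low counts, 0.28 with at least 10 counts in every library, where *Hspb3* is left out of it, and 1.09 to 1.12 with each library left out. Without D0 replicate 2 the log2 fold change of *Hspb3* was 8.74 and without D0 replicate 1 it was 7.48, as fitted values against a group under the detection limit. Leaving out each library called 13236 to 13599 genes and kept the log2 ratios of the 6 pairs within 0.71 to 0.79 for *Hspb2* over *Cryab* and within 6.63 to 6.69 for *Unc45b* over *Unc45a*; 2 against 3 libraries cannot give a two-sided exact p under 0.2.

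The labels do not say whether equal replicate numbers mark pairs. The correlations of deviations of equally numbered libraries were small, 0.033, 0.064 and 0.028. Each D0 library still correlated best with the D5 library of its own number, a hint from the data only, so pairing is not settled. With the replicate block 13558 genes were called and all 10 genes kept their call. Adding pseudogene counts (for *Hspb1* also those of *Gm9817*), under 1% of those of each gene, could hardly move a value and says nothing on reads with several matches. Depth limits *Hspb3* at D0, where its counts allow no statement on its level under 3 counts per library.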
